A study of Mus musculus with 6 samples.

Results

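The genes described here are 8 that are widely used as markers of thalamic neurons, *Tcf7l2*, *Prkcd*, *Lef1*, *Gbx2*, *Synpo2*, *Ramp3*, *Ntng1* and *Zic1*, out of 52390 genes listed in the count table. They were picked by symbol because they mark a brain region other than the prefrontal cortex and because, in these same counts, they are highest in 1 control library, control 3. That their levels peak in control 3 is therefore how they were chosen and is given as a description. All 8 passed the filter on low counts, and 21844 genes were tested in all.

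RNA-seq was performed on brain tissue of 3 *AP1AR-DT* overexpressing (OE) mice and 3 control mice. All were male C57BL/6 mice that received a recombinant adeno-associated virus in the medial prefrontal cortex (mPFC) at 8 weeks of age. In the OE mice the human synapsin I promoter, a neuronal promoter, drove the human lncRNA *AP1AR-DT* (labelled AC109347.1 overexpressed) and a CMV promoter drove EGFP. The control mice (labelled wild type) received an empty vector with no insert, so virus injection is shared by both groups. The labels give the tissue as brain, while the study names both the mPFC and cortical tissue. The virus was delivered to the mPFC only, and the synapsin promoter restricts the lncRNA to neurons, whereas the RNA is from all cells of the dissected piece. *AP1AR-DT* itself was not analysed here, so the labels were not checked against it.

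The thalamus is a deep relay structure whose excitatory neurons send sensory and limbic signals to the cortex. The cell bodies of these neurons, where most of their mRNA is found, lie outside the cortex. *Tcf7l2* and *Lef1* encode transcription factors that act with β-catenin in Wnt signalling, and in the adult brain they mark thalamic neurons. *Gbx2* encodes a homeodomain transcription factor of developing and some adult thalamic nuclei, and *Zic1* a zinc finger factor of the thalamus, septum, cerebellum and meninges. *Prkcd* encodes protein kinase C delta, *Ramp3* a membrane protein that modifies calcitonin-family receptors, *Ntng1* the axonal adhesion protein netrin-G1 and *Synpo2* an actin-binding protein.

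The libraries held 42061721 to 54668294 counts. Control 3 stood apart from the others: 1.64% of the genes tested lay there at least 2-fold above every other library, against 0.211% to 0.623% in each of the other 5. The OE libraries carry no mouse number in the table and are called OE A, OE B and OE C. Levels are given as normalized CPM (each count relative to the sum of its library, adjusted with edgeR's TMM factors) in the order control 1, 2, 3 and then OE A, B, C. *P* values measure only the spread between these 6 libraries. DEGs are genes with *P* under 0.05 and an absolute log2 fold change above 0.32.

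The 250 bases upstream of the RefSeq transcription starts (GRCm38.p6) of the 8 genes were read for motifs, in 13 windows that cover all 8 genes. Their common peak in control 3 is how the genes were chosen and is no sign of shared regulation. The windows below belong to the 3 genes with the largest excess in control 3 and to *Lef1*, whose start inside the gene holds the TCF/LEF letters. Capitals mark the letters CTTTGA (a core of TCF/LEF sites), TAATTA (a homeodomain core) or GGGCGG (the GC box), each searched on both strands, so that TCAAAG and CCGCCC are the same motifs read from the other strand. The sequences run 5′ to 3′ on the strand of the gene.
*Tcf7l2*, chr19:55741560-55741809, plus strand: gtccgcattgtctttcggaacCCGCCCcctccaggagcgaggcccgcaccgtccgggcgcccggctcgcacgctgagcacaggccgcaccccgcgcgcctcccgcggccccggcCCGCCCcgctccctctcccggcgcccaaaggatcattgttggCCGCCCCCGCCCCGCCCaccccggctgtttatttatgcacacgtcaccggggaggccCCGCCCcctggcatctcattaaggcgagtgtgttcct
*Gbx2*, chr1:89931177-89931426, minus strand: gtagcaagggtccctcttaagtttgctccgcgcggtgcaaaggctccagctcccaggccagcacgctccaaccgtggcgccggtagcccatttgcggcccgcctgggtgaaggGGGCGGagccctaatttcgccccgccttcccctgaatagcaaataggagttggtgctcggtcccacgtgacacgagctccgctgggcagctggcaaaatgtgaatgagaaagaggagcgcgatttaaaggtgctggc
*Synpo2*, chr3:123236150-123236399, minus strand: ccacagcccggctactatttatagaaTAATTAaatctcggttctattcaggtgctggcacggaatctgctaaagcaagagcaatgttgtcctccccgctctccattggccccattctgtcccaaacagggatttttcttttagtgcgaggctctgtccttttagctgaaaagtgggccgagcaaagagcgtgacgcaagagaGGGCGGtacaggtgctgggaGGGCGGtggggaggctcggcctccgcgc
*Lef1*, chr3:131156044-131156293, plus strand: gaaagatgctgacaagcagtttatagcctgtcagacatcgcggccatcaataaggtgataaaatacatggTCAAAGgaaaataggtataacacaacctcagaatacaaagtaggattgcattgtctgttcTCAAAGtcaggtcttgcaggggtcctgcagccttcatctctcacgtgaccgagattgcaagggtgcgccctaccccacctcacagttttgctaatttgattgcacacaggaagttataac

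The GC box was the motif most widely shared. It lay upstream of all 8 genes, in 10 of the 13 windows, and the *Tcf7l2* window above held 6 copies, some of them overlapping. Of all 27025 gene symbols with a window, 35.4% held it. The G and C content of the windows shown was 72.8% for *Tcf7l2*, 61.6% for *Gbx2*, 54.4% for *Synpo2* and 44.8% for *Lef1*, against a median of 52.4% over all windows. The *Lef1* window shown held no GC box, and its other windows were at 66.4%, 66.4% and 50.8%. The remaining windows with a GC box were at 67.6% for *Prkcd*, 66% for *Zic1*, 65.2% for *Ramp3* and 62.4% for *Ntng1*. Of all windows, 27% were above 60%. The TCF/LEF core was found upstream of 2 of the 8 genes, *Lef1* with 2 copies and *Prkcd* with 1, beside 15.8% of all symbols. The homeodomain core was found upstream of *Synpo2* alone, beside 5.65% of all symbols. These are matches of letters only and show no binding.

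Among the transcription factors, *Tcf7l2* (ENSMUSG00000024985, chr19:55741820-55933654 of GRCm38, plus strand) gave the clearest step between control 3 and the rest. Its levels were 9.76, 9.80 and 134 CPM in the controls and 11.2, 10.9 and 10.7 CPM in the OE libraries. Control 3 was 12.0-fold above the next library, while the other 5 spanned only a factor of 1.15. With all 6 libraries the log2 fold change, OE against control, was −2.23 ± 1.01 (SE), although every OE library lay above the other 2 controls.

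*Lef1* (ENSMUSG00000027985, chr3:131110471-131224356, plus strand) belongs to the TCF/LEF family, as does *Tcf7l2*. It measured 1.65, 3.23 and 22.4 CPM in the controls and 3.04, 4.90 and 3.54 CPM in the OE libraries. Control 3 stood 4.57-fold above OE B, and control 1 was the lowest library. The log2 fold change was −1.25 ± 0.88 (SE). An antisense gene, *Gm43352*, overlaps 13.7% of the exon bases of *Lef1*, and use of strand in counting is not stated, so reads in that stretch cannot be assigned to either gene with certainty.

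*Gbx2* (ENSMUSG00000034486, chr1:89927956-89931179, minus strand) was at 3.81, 2.73 and 28.1 CPM in the controls and at 2.55, 1.04 and 2.88 CPM in the OE libraries. Control 3 was 7.38-fold above control 1, and the groups overlapped, since OE C lay above control 2. Its log2 fold change was −2.42 ± 0.93 (SE). *D130058E05Rik*, on the opposite strand, shares 43.5% of the exon bases of *Gbx2* and was likewise highest in control 3, with 0.934 and 4.10 CPM in the other controls and 2.34 to 4.81 CPM in the OE libraries, so the counts of *Gbx2* are uncertain to that extent.

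*Zic1* (ENSMUSG00000032368, chr9:91358058-91365810, minus strand) differed from the rest of the list. It was high everywhere, at 458, 412 and 478 CPM in the controls and 270, 332 and 473 CPM in the OE libraries. Control 3 exceeded OE C by a factor of only 1.01. On library totals without the TMM factors OE C was the highest, so *Zic1* was highest in control 3 only under the TMM or DESeq2 scaling. OE A and OE B were the lowest libraries, and the log2 fold change was −0.33 ± 0.20 (SE).

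*Prkcd* (ENSMUSG00000021948, chr14:30595354-30626210, minus strand), the kinase of the list, also varied without control 3. Its levels were 93.2, 67.0 and 149 CPM in the controls and 58.6, 106 and 110 CPM in the OE libraries. The excess of control 3 over OE C was 1.35-fold, smaller than the 1.88-fold span of the other 5 libraries, and the groups overlapped widely. The log2 fold change was −0.17 ± 0.34 (SE).

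*Ramp3* (ENSMUSG00000041046, chr11:6658521-6677475, plus strand), the receptor modifier, measured 5.21, 3.49 and 52.5 CPM in the controls and 12.6, 14.2 and 4.42 CPM in the OE libraries. Control 3 was 3.70-fold above OE B. Below it, OE A and OE B formed a higher pair, while OE C lay between the other 2 controls. The log2 fold change was −0.97 ± 1.01 (SE) with all 6 libraries.

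The adhesion gene *Ntng1* (ENSMUSG00000059857, chr3:109780040-110144011, minus strand) was at 31.2, 28.7 and 133 CPM in the controls and at 23.1, 19.7 and 28.9 CPM in the OE libraries. Control 3 was 4.26-fold above control 1, and of the OE libraries only OE C reached the level of control 2. The log2 fold change was −1.42 ± 0.59 (SE). *Synpo2* (ENSMUSG00000050315, chr3:123076519-123236149, minus strand) was at 6.64, 12.6 and 114 CPM against 5.77, 6.81 and 8.44 CPM. Its excess in control 3 over the mean of the other 5 libraries, 14.2-fold, was the largest of the 8 genes, and control 2 was the next highest library. The log2 fold change was −2.67 ± 1.01 (SE).

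**Figure D1:**
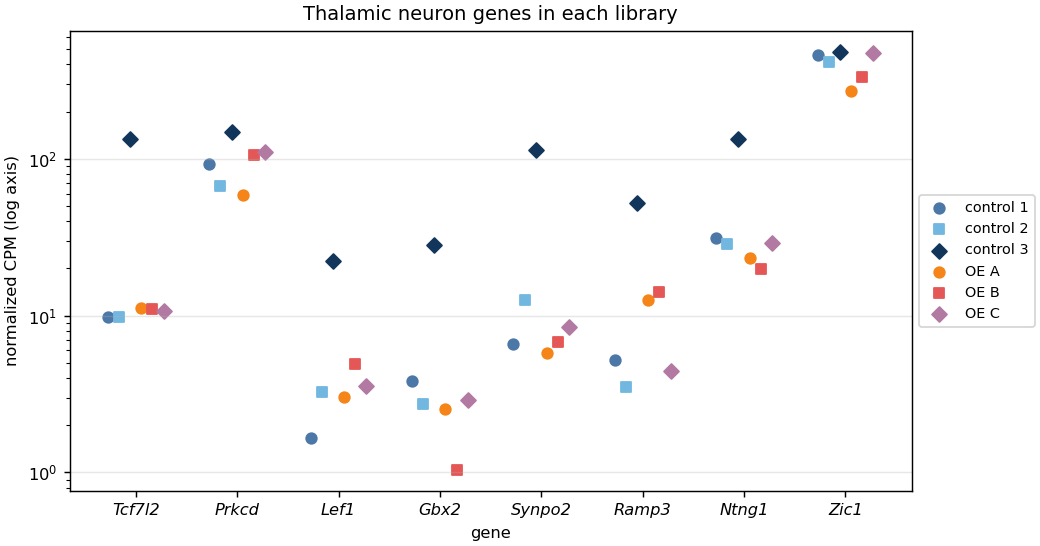
Normalized CPM (log axis) of each of the 8 thalamic neuron genes in the 3 control and 3 OE libraries, 1 point per library. The dark blue diamond of control 3 lies at least 3.70-fold above every other library for 6 genes, 1.35-fold for *Prkcd* and 1.01-fold for *Zic1*.

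The plot of the 8 genes by library shows 2 kinds of member. For *Tcf7l2*, *Synpo2*, *Gbx2*, *Lef1*, *Ramp3* and *Ntng1* control 3 was 5.04-fold to 14.2-fold above the mean of the other 5 libraries, whereas for *Prkcd* the ratio was 1.71 and for *Zic1* 1.23. As thalamic markers, *Prkcd* and *Zic1* thus did not separate the libraries as the other 6 did. Of all genes tested, 21.9% were highest in control 3, and 1.64% lay there at least 2-fold above every other library, as 6 of the 8 genes did. The 2 genes with the small excess were also those with the highest levels per length of transcript in the other 5 libraries. In CPM per kb of the longest transcript, the median over those 5 libraries was 73.5 for *Zic1*, 32.7 for *Prkcd*, 5.13 for *Ntng1*, 3.91 for *Ramp3*, 2.88 for *Tcf7l2*, 1.28 for *Gbx2*, 0.884 for *Lef1* and 0.740 for *Synpo2*. In control 3 the order was another: *Zic1* at 85.3, *Prkcd* at 52.2, *Ramp3* at 39.4, *Tcf7l2* at 36.1, *Ntng1* at 23.8, *Gbx2* at 13.2, *Synpo2* at 12.4 and *Lef1* at 6.12 CPM per kb. *Gbx2* and *Synpo2* were neighbours there that differed by little. In bulk tissue, fewer cells of a type and less RNA per cell cannot be told apart, for these genes as for all others.

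With all 6 libraries, all 8 genes had a log2 fold change below 0, with a median of −1.34, beside −0.01 and 51.5% below 0 over all genes tested. This contrast includes control 3, whose high values chose the genes, so it is a description and no test of them. *Gbx2*, *Synpo2* and *Ntng1* passed the DEG thresholds in edgeR's quasi-likelihood test, all lower in OE, where 7.15% of all genes did, and 0 were higher, where 5.10% did (12.2% in either direction). Adjusted *P* (Benjamini-Hochberg) was under 0.05 for 0 of the 8 and for 0.0275% of all genes. DESeq2 gave no *P* for *Tcf7l2* and *Ramp3*, and of the other 6 it called 2, *Gbx2* and *Synpo2*, and 0 at an adjusted *P* under 0.05. Over all genes DESeq2 called 2965 with all 6 libraries, against 2675 by edgeR. The percentages of all genes called, here and below, are edgeR's, and none is given for DESeq2. For 0 of the 8 genes did the 3 controls lie wholly above or below the 3 OE libraries, which 12.0% of all genes did with OE lower and 10.4% with OE higher. The calls also moved with single libraries. Without control 1 or without control 2 there were 4, *Tcf7l2* being added, without OE A or without OE B there were 0, and without OE C the only call was *Zic1*.

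Without control 3 the 8 genes no longer shared a direction. Of the 8, 4 lay below 0 and 4 above, with a median log2 fold change of −0.05 beside a median of 0.00377 and 49.6% below 0 over the 22502 genes tested in that fit. *Ramp3* was the only one to pass the DEG thresholds, higher in OE, where 5.64% of all genes passed with OE higher and 5.16% with OE lower, so 1 of 8 is close to the 10.8% of all genes called. By edgeR's quasi-likelihood test with Benjamini-Hochberg adjustment 0 of the 8 had an adjusted *P* under 0.05 (0.0578% of all genes) and 1 an unadjusted *P* under 0.05, and DESeq2 gave the same counts of 0 and 1.

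*Ramp3* had a log2 fold change of 1.27 ± 0.51 (SE) without control 3, with an adjusted *P* of 0.399 (edgeR, Benjamini-Hochberg). OE A and OE B were high, at 12.6 and 14.2 CPM, while OE C at 4.42 CPM lay within the controls' 3.49 to 5.21 CPM. The unadjusted *P* was no longer under 0.05 with correction for GC content, where the log2 fold change was 1.09, nor when control 1 (1.59), control 2 (1.00), OE A (1.11) or OE B (0.98) was left out as well. Leaving out OE C instead gave 1.63. Over all alternatives without control 3 the adjusted *P* ranged from 0.144 to 0.719 (edgeR or DESeq2).

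The transcription factors were split in the same fit. *Tcf7l2* had a log2 fold change of 0.17 ± 0.13 (SE; adjusted *P* = 0.581, edgeR), with all 3 OE libraries above both remaining controls, at 10.7 to 11.2 CPM against 9.76 and 9.80 CPM. It was the only 1 of the 8 without overlap here, where 15.8% of all genes had none with OE higher and 17.6% none with OE lower. *Lef1* had 0.66 ± 0.37 (adjusted *P* = 0.473, edgeR), *Gbx2* −0.59 ± 0.45 (adjusted *P* = 0.588, edgeR) and *Zic1* −0.27 ± 0.23 (adjusted *P* = 0.622, edgeR). For none of these 4 was the difference larger than the spread between libraries by this test. The same held for *Prkcd* at 0.21 ± 0.29 (adjusted *P* = 0.782, edgeR), *Synpo2* at −0.44 ± 0.30 (adjusted *P* = 0.543, edgeR) and *Ntng1* at −0.31 ± 0.18 (adjusted *P* = 0.486, edgeR). *Synpo2* changed sign, to 0.08, when control 2, its highest remaining library, was left out too.

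**Figure D2:**
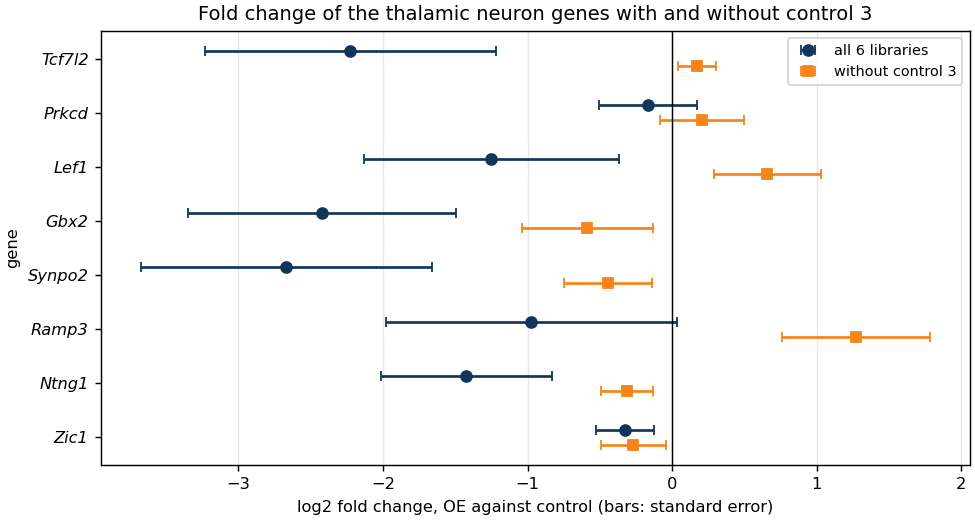
Log2 fold change of each thalamic neuron gene, OE against control, from the fit on all 6 libraries (circles) and on the 5 libraries without control 3 (squares), with bars of 1 standard error. All 8 circles lie left of 0, while the squares lie on both sides, from −0.59 for *Gbx2* to 1.27 for *Ramp3*.

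Beside the 8, 17 other genes known for expression in thalamic neurons or nuclei were read. This list was drawn up with earlier results of these data known, so its levels are a description. In control 3, 13 of the 17 were highest, 8 of them at least 2-fold above every other library. *Slc17a6*, the vesicular glutamate transporter of subcortical neurons, measured 22.5, 80.8 and 216 CPM in the controls and 16.9, 14.9 and 26.2 CPM in the OE libraries. The homeobox gene *Shox2* went from at most 0.341 CPM in the other 5 libraries to 62.0 CPM in control 3, and *Lhx9*, a LIM homeobox gene, measured 0.418, 3.76 and 38.9 CPM in the controls and at most 1.18 CPM in the OE libraries. *Slc17a6* and *Lhx9* were also higher in control 2 than in control 1, whereas *Tcf7l2* was at 9.76 and 9.80 CPM in these libraries.

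By edgeR's quasi-likelihood test with Benjamini-Hochberg adjustment, 9 of the 17 were DEGs, all lower in OE (7.15% of all genes), with adjusted *P* from 0.295 upward and none under 0.05. DESeq2 called 9 as well, 1 of them with an adjusted *P* under 0.05, for which DESeq2's share of all genes is not given. This contrast includes control 3, where 13 of the 17 were highest, so as for the 8 the calls are no test. Besides *Slc17a6* (log2 fold change −2.46 ± 0.73, SE), *Shox2* and *Lhx9*, these were *Rora* (−1.93), a nuclear receptor, *Slitrk6* (−1.90), a synaptic adhesion gene, *Rgs16* (−1.30), a regulator of G protein signalling, *Plcb4* (−0.98), *Zfhx3* (−0.82) and *Amotl1* (−0.70). For 3 of them, *Rora*, *Slitrk6* and *Amotl1*, all controls lay above all OE libraries, as for 12.0% of all genes. The median over the 17 was −1.10. *Calb2* (−1.10) and *Necab1* (−1.07), which encode calcium-binding proteins, *Cacna1g* (−0.08), a T-type calcium channel, and *Lhx2* (0.40) were the most abundant of those that did not pass.

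Without control 3, 4 of these 9 remained DEGs, *Slc17a6*, *Slitrk6*, *Amotl1* and *Zfhx3*, again lower in OE (5.16% of all genes in that fit), and no further gene of the 17 was called. The median fell in size to −0.54. *Slc17a6* had a log2 fold change of −1.40 ± 0.51 (SE; adjusted *P* = 0.399, edgeR), with control 2 at 80.8 CPM and control 1 at 22.5 CPM, inside the range of OE libraries. Control 2 was also the higher of the 2 remaining controls for *Slitrk6*, *Amotl1* and *Zfhx3*. None of the 4 had an adjusted *P* under 0.05 in edgeR or in DESeq2. The count of DEGs in the full contrast was 3 without OE A and 1 without OE B, against 9 with all libraries.

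Markers of structures that adjoin the thalamus peaked in the same library, and their part in the levels of the 8 genes was not tested. All 7 markers of the medial habenula were highest in control 3, where their summed level was 170 CPM against 14.9 to 22.2 CPM in the other libraries. *Pou4f1*, a defining habenular transcription factor, was at 17.5 CPM there, at 0.185 CPM in OE B and at 0 in the other 4 libraries, where 3 counts would equal 0.0566 to 0.0737 CPM. All 10 markers of the choroid plexus, the epithelium that secretes cerebrospinal fluid, were at least 2-fold above every other library, with a sum of 4076 CPM against 54.0 to 80.4 CPM. *Ttr*, the main secreted protein of that epithelium, reached 3428 CPM against 1.06 to 5.43 CPM. For *Kcnj13* and *Slc4a5* the level was 39.4 and 31.1 CPM in control 3 and 0 in both other controls.

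Other regions and cell types moved with control 3 less uniformly. Of the 8 hippocampal markers 5 were highest there, each at least 2-fold above every other library, such as *Prox1*, a factor of dentate granule cells, at 93.3 CPM against 11.3 to 20.4 CPM, while *Wfs1* was lowest there at 136 CPM. The 8 oligodendrocyte markers were all highest in control 3, with a sum of 10661 CPM against 5053 to 6437 CPM, and 1 of them passed 2-fold. Hypothalamic markers were divided between libraries: *Oxt* and *Avp*, which encode the neuropeptides oxytocin and vasopressin, were at 281 and 184 CPM in control 2 and at 18.6 and 15.1 CPM in control 3, whereas *Pmch* and *Hcrt* peaked in control 3 at 19.2 and 11.3 CPM. Sums for endothelium (102 CPM against 85.8 to 139 CPM), meningeal fibroblasts (36.8 against 21.0 to 42.6 CPM) and striatum (562 against 416 to 2713 CPM) lay within the range of the other libraries. The sum for cerebellum, 32.2 CPM, was just under their 32.4 to 51.8 CPM.

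The markers of cortical excitatory neurons, against which the labelled tissue was checked, were detected in every library but at uneven levels. Their sum was 521 CPM in control 3, 355 and 281 CPM in controls 1 and 2, and 684, 885 and 387 CPM in the OE libraries. Controls 1 and 2, on which the fit without control 3 rests, had the lowest sums. *Slc17a7*, the main vesicular glutamate transporter of cortical neurons, was at 28.2, 3.86 and 233 CPM in the controls and 231, 463 and 87.2 CPM in the OE libraries. Control 2, the library richest in *Oxt* and *Avp*, was thus the lowest for *Slc17a7*, and control 3 held this cortical transcript and the thalamic ones together. Of the 10 markers, 9 had a log2 fold change above 0 with all 6 libraries and without control 3. By edgeR's quasi-likelihood test *Cux2* was a DEG in both fits, and *Emx1* and *Slc17a7* (log2 fold change 4.04) without control 3. All were higher in OE (5.10% and 5.64% of all genes), with no adjusted *P* under 0.05. DESeq2 called 5 and 3, all higher in OE, 2 of the 3 with an adjusted *P* under 0.05. The percentages are edgeR's and are no background for these DESeq2 counts.

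**Figure D3:**
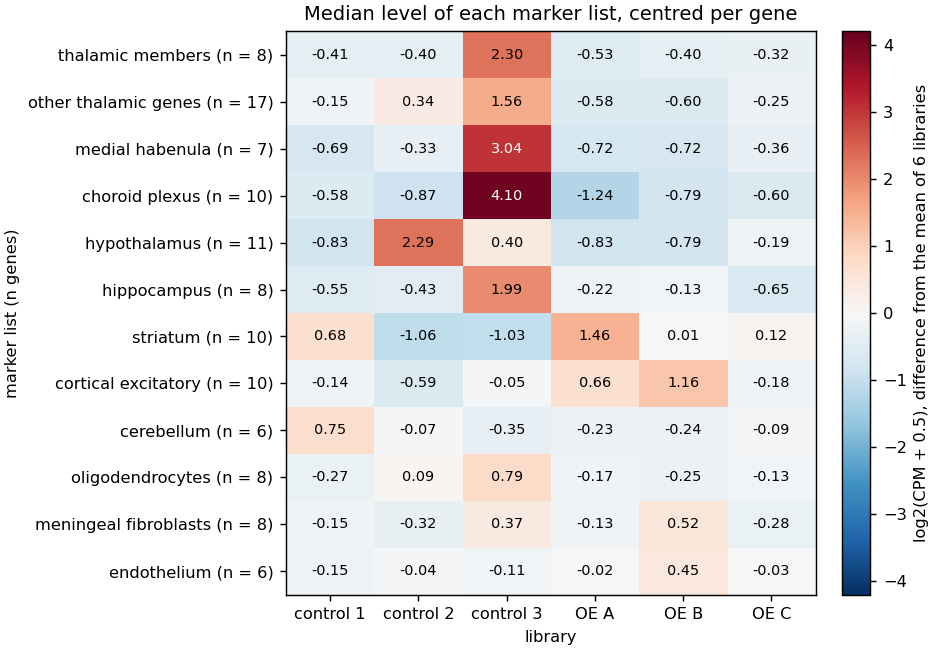
Median over the genes of each marker list of log2(CPM + 0.5), centred on each gene's mean over the 6 libraries, with 1 column per library and red for above the mean. Control 3 is the highest column for the 8 thalamic neuron genes (2.30), the other thalamic genes (1.56), medial habenula (3.04), choroid plexus (4.10), hippocampus (1.99) and oligodendrocytes (0.79), and control 2 for hypothalamus (2.29).

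The map of list medians by library places the thalamic neuron genes between the choroid plexus and habenular lists, which peaked more sharply in control 3, and the other thalamic genes, which peaked less. Gene by gene, the median ratio of control 3 to the mean of the other 5 libraries was 6.71 for the 8 thalamic neuron genes, 3.45 for the 17 other thalamic genes, 20.1 for the habenular list, 31.8 for the choroid plexus list and 5.22 for the hippocampal list. It was 2.13 for oligodendrocytes and 0.845 for cortical excitatory neurons.

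**Figure D4:**
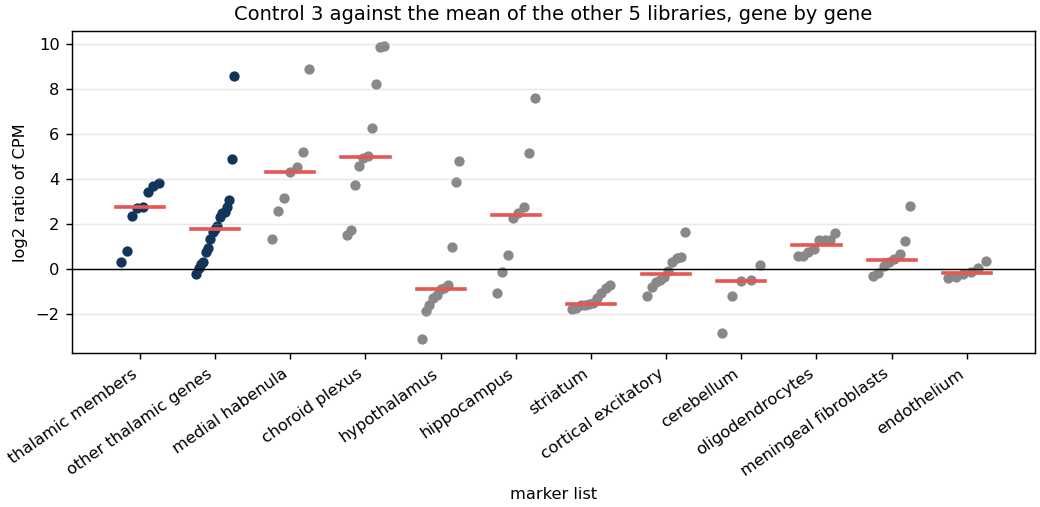
Log2 ratio of the CPM in control 3 to the mean CPM of the other 5 libraries for each gene of each marker list (points), with the list's median (red bar) and thalamic lists in blue. All 8 thalamic neuron genes lie above 0, as do all genes of the medial habenula, choroid plexus and oligodendrocyte lists, while all 10 striatal genes lie below 0.

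The genes whose profile over the 6 libraries was nearest to the median profile of the 8 were sought among 13967 other protein-coding genes with a mean of at least 1 CPM. That median profile, in log2(CPM + 0.5) centred on the mean, was −0.41, −0.40 and 2.30 in the controls and −0.53, −0.40 and −0.32 in the OE libraries. The nearest were *A2m* (root mean square difference 0.0973), a protease inhibitor, *Nwd2* (0.113), *Epn3* (0.154), *Trpv4* (0.156), a calcium-permeable channel, and *Syt7* (0.156), a synaptotagmin, followed by *Ace*, *Rdh5*, *Plekhg1*, *Slc16a8* and *Irag1* (0.160 to 0.238). *Nwd2* was in the habenular list and *Plekhg1* in the list of other thalamic genes. For *A2m* the levels were 1.38, 1.34 and 13.1 CPM in the controls and 1.45, 1.67 and 1.75 CPM in the OE libraries, and for *Syt7* 49.5, 42.5 and 333 CPM against 54.7, 55.9 and 57.4 CPM. In all, 94 genes lay within 0.5, beside a median of 1.03 over the candidates. Of the 8 themselves, *Ntng1* (0.252), *Tcf7l2* (0.357) and *Lef1* (0.388) were within that limit, *Gbx2* (0.508) and *Synpo2* (0.515) just outside it, and *Ramp3* (0.738), *Prkcd* (0.761) and *Zic1* (0.917) farther away.

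Related genes were read beside the 8. Of 18 genes of the TCF/LEF pathway 5 were highest in control 3, where 21.9% of all genes were, and only *Nkd1*, a Wnt antagonist, passed 2-fold over every other library, at 23.3 CPM against 7.99 to 10.4 CPM. The Wnt target *Axin2* was at 31.0, 28.0 and 34.5 CPM in the controls and 25.2, 27.7 and 31.0 CPM in the OE libraries, and *Ctnnb1*, which encodes β-catenin, at 520, 544 and 620 CPM against 511, 516 and 521 CPM. By edgeR's quasi-likelihood test 1 of the 18 was a DEG, *Pygo1* (−0.33 ± 0.12, SE; adjusted *P* = 0.308), lower in OE, and without control 3 the only one was *Tle1*, a co-repressor, higher in OE (0.38 ± 0.11; adjusted *P* = 0.399). DESeq2 gave 1 DEG in each fit, and without control 3 its adjusted *P* was under 0.05 for 1 of the 18. DESeq2's share of all genes is not given beside these counts. The median log2 fold change of the pathway was 0.02.

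*Prkce*, another protein kinase C gene, was at 304, 250 and 346 CPM in the controls and 292, 313 and 253 CPM in the OE libraries. Control 3 was its highest library too, by a factor of 1.11 over OE B, and the groups overlapped. Its log2 fold change was −0.07 ± 0.14 (SE; adjusted *P* = 0.843, edgeR). *Prkcq* and *Prkch* also peaked in control 3, like *Prkcd*. *Prkcq* was at 10.2, 11.4 and 26.6 CPM in the controls and 13.5, 10.7 and 8.31 CPM in the OE libraries, with control 3 above OE A by a factor of 1.97. *Prkch* was at 15.7, 4.22 and 28.6 CPM against 21.2, 7.88 and 8.42 CPM, with control 3 above OE A by a factor of 1.35. Of *Zic2*, *Zic4* and *Zic5*, paralogs of *Zic1*, 0 were DEGs or had *P* under 0.05 in edgeR or DESeq2. OE A was the lowest library for these 3, as it was for *Zic1*, and for *Zic4* and *Zic5* control 3 was the highest and OE C the next, again as for *Zic1*. *Zic2* was at 128, 126 and 156 CPM in the controls and 63.0, 115 and 160 CPM in the OE libraries, and *Zic4*, which shares 1.05% of the exon bases of *Zic1*, at 39.7, 30.3 and 60.8 CPM against 25.7 to 55.2 CPM.

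*Ramp1*, *Ramp2* and the receptors *Calcrl* and *Calcr*, with which RAMP proteins associate, also gave 0 DEGs and 0 genes with *P* under 0.05 in edgeR and DESeq2. *Calcr* was highest in control 2, at 28.2 CPM against 1.08 to 8.92 CPM elsewhere, and *Ramp2* was low in OE C, at 10.7 CPM against 38.4 to 53.3 CPM. *Ramp1* was at 80.8, 66.2 and 63.9 CPM in the controls and 101, 85.2 and 68.0 CPM in the OE libraries.

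Among the partners of *Ntng1*, its paralog *Ntng2* and the netrin-G ligands *Lrrc4c*, *Lrrc4* and *Lrrc4b*, 0 were DEGs by edgeR with all libraries, although *Lrrc4* (0.23 ± 0.09, SE) and *Lrrc4b* (0.30 ± 0.12) had *P* under 0.05 below the fold threshold, and DESeq2 gave 0 DEGs too. *Lrrc4c*, the ligand of netrin-G1, was at 82.1, 67.7 and 56.2 CPM in the controls and 55.4, 59.3 and 59.4 CPM in the OE libraries, and was a DEG without control 3 (−0.36 ± 0.11, SE; adjusted *P* = 0.399, edgeR). *Synpo*, the paralog of *Synpo2* found in dendritic spines of forebrain neurons, took another course from *Synpo2*: it was at 47.3, 57.0 and 42.6 CPM in the controls and 161, 168 and 44.1 CPM in the OE libraries (1.34 ± 0.46, SE; adjusted *P* = 0.295, edgeR), and was a DEG. As for *Ramp3*, OE A and OE B were high and OE C lay within the controls, and without control 3 its log2 fold change was of like size, 1.27 ± 0.55 (SE; adjusted *P* = 0.408, edgeR), with an unadjusted *P* no longer under 0.05. *Gbx1*, the paralog of *Gbx2*, was at 27.7, 12.7 and 9.41 CPM in the controls and 26.0, 35.8 and 30.1 CPM in the OE libraries. Control 3 was thus its lowest library. Its log2 fold change was 0.89 ± 0.38 (SE; adjusted *P* = 0.336, edgeR), and it was not a DEG by edgeR. Of the 3 paralogs of *Synpo2* and *Gbx2* read, DESeq2 called 2 higher in OE with all 6 libraries and 0 without control 3. DESeq2's adjusted *P* was under 0.05 for 0 of them.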

How the data were processed

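RNA was extracted with TRIzol and libraries were made with the Illumina TruSeq RNA kit (use of strand not stated) and sequenced as paired-end reads. According to the methods of the study, reads were mapped to GRCm38 with Bowtie2 and quantified with StringTie on the GENCODE annotation, from which the authors deposited whole-number counts per gene without normalization. The submitters' processing notes list other tools (TopHat2 2.0.4, SAMtools, HTSeq, Cuffdiff, edgeR 2.6.12 and mm9), and which of these made the counts was not resolved. Bowtie2 does not split reads at introns, which lowers counts of genes with many junctions. The deposited table also holds the authors' mean, log2 fold change, its standard error, Wald statistic and p-values, which were not used.

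The 6 count columns were tested in R 4.3.3 with edgeR 4.0.16 (filterByExpr, TMM factors, two-sided quasi-likelihood F-test, Benjamini-Hochberg adjustment over all genes tested), once with all 6 libraries and once without control 3. Control columns match the labels by mouse number, and OE columns carry only the group. Nothing states whether libraries of 1 group came from separate litters or days. The precision of each value is set by 3 libraries per group of 42061721 to 54668294 counts. Levels of 3 counts or fewer are at the limit of detection, which covers counting error only. Gene positions, shared exon bases and lengths were taken from GENCODE vM21 (GRCm38), where 52133 of 52390 identifiers were found. Sequences are from RefSeq windows of GRCm38.p6, in which all 8 genes matched. Python 3.11.15 with pandas 2.3.3 and matplotlib 3.10.9 produced the tables and figures.

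The 8 genes and the marker lists were chosen with earlier results of these data known. Named genes were the 8, the genes of the lists that passed the DEG thresholds with at most 4 others per list by mean CPM, and the 10 genes of nearest profile. *Shox2*, *Lhx9*, *Pou4f1* and the other untested or low genes are given as levels because their fitted fold changes depend on the prior count. *Axin2* and *Nkd1* were named after their values were seen. The alternatives were DESeq2 1.42.0, its size factors, library totals, omitting the filter on low counts, requiring 10 counts in each library, correction for GC content by a spline with 5 degrees of freedom, and leaving out each library in turn. The scripts were tested on simulated counts. Some genes of the families are not reported here.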

Additional observations from a re-analysis of the deposited data

How the results depend on the processing

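All 8 thalamic neuron genes kept a log2 fold change below 0 with all 6 libraries under DESeq2, DESeq2's size factors, library totals, the other settings of the low-count filter and correction for GC content, with a median between -1.34 and -1.24. When 1 library was left out the median ranged from -1.75 (without control 1) to -0.05 (without control 3), and only control 3, and OE A for 1 gene, took genes above 0. The count of DEGs over all genes, 2675, became 1569 with correction for GC content, and 1430 (without OE B) to 3508 (without OE C) when 1 library was left out. DEGs among the 17 other thalamic genes, 9 with all libraries, ranged from 1 (without OE B) to 13 (without control 1), 12 of the 13 lower in OE. The cause was not tested. Leaving out a further library besides control 3 was chosen after seeing the data. It left 4 of 8 genes below 0 in every case. In place of *Ramp3* alone, the DEGs were then *Synpo2* without control 1 (-0.83), *Lef1* without control 2 (1.22), none without OE A or OE B, and *Ramp3*, *Ntng1* and *Zic1* without OE C.

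No paired analysis was possible because the OE columns carry no mouse number and the labels of the 2 groups share only number 3. With groups of 3, in which 1 control library was selected for its high values, the contrast of all 6 libraries cannot test these genes, and the fit without control 3 rests on 2 controls. Low genes such as *Gbx2* and *Lef1*, at 56 to 264 counts outside control 3, carry a larger counting error than *Zic1*.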
